A study of Mus musculus with 12 samples.

Results

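The 39 protein-coding Hox genes of the mouse (symbols Hoxa, Hoxb, Hoxc or Hoxd followed by a number, of 21900 protein-coding genes in RefSeq) were examined in 4 lists of open-chromatin sites from dorsal root ganglia. The rule that picks them uses the gene symbol and no measured value. They stand in 4 clusters: HoxA with 11 genes on chromosome 6, HoxB with 10 on chromosome 11, HoxC with 9 on chromosome 15 and HoxD with 9 on chromosome 2 (positions are on mm10). Each cluster was taken from the first to the last base of its Hox genes, with 100 kb added on either side, and every peak summit in this window was counted once. The windows held 25 of 27279 summits in sham wild-type mice, 43 of 43841 in injured wild-type mice, 41 of 48332 in sham knockout mice and 21 of 35815 in injured knockout mice.

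Hox genes encode homeodomain transcription factors that give cells their position along the head-to-tail axis. Within a cluster the genes lie in the order in which they are used along the body: low paralogue numbers (1 to 3) act towards the head, high numbers (9 to 13) towards the tail. Paralogues are the genes with the same number in different clusters. Trithorax and Polycomb complexes keep the clusters active or silent after the embryo has been patterned, so cells of the adult often keep a record of their level of origin. Lumbar ganglia arise from neural crest of the posterior trunk.

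Accessibility was measured by ATAC-seq, in which a transposase cuts and tags open DNA, in 12 libraries, each from 6 whole ganglia of the levels L4 to L6. Wild-type mice (Silc1+/+) and mice lacking the long noncoding RNA Silc1 (Silc1-/-, called knockout here; how the allele was made is not stated in the labels) were studied after their sciatic nerve had been crushed at the thigh or after sham surgery. Each of the 4 groups had 3 libraries. The time after surgery and the age and sex of the mice in each group are not stated in the labels used here. Each group had 1 list of summits, so no spread between animals could be had and no difference between groups was tested. The number of reads behind each list is unknown. In whole ganglia, a site open in fewer cells and a site less open in each cell cannot be told apart.

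A summit is the highest point of a peak. Its score is the authors' own −log10 value (of p or of q, which of them is not stated), and scores of this kind grow with depth. The median score over a whole list was 6.33, 5.72, 4.97 and 4.77 in sham wild-type mice, injured wild-type mice, sham knockout mice and injured knockout mice. At gene starts, Isl1 and Tubb3 of sensory neurons had a summit in all 4 lists, while the starts of 5 macrophage, 4 skeletal muscle and 4 brain and spinal cord marker genes had none in any list. The neuronal markers Prrxl1 and Calca and the glial markers Sox10, Fabp7 and Apoe had none either. Gm9866, taken from general knowledge to be Silc1, held 0 summits in every list, so the genotype labels could not be checked here.

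Promoter sequence is shown for Hox genes whose start carried the peaks described below, so that the sites can be found. A promoter entry was at hand for 22 of the 39 genes, 24 starts in all, from RefSeq on GRCm38.p6 (the build mm10). Each run gives the 250 bases before the start, 5′ to 3′ on the strand of the gene. Capitals mark a summit base and the 5 bases on either side of it, where they fall in the run; a run with no capitals holds no summit of any list. The first is Hoxd9, which had a summit near its start in all 4 lists, followed by Hoxd10, Hoxd1 and Hoxa5, each with a summit inside the run. Hoxa10 and Hoxd4 had the highest lower score of the called genes in their clusters; the corresponding genes of the other clusters, Hoxb5 and Hoxc9, have no entry. Hoxa13, which patterns digits and hindgut, is shown as a gene of the posterior end with no summit in any list within 5 kb of its body.
Hoxd9, chr2:74697513-74697762, plus strand: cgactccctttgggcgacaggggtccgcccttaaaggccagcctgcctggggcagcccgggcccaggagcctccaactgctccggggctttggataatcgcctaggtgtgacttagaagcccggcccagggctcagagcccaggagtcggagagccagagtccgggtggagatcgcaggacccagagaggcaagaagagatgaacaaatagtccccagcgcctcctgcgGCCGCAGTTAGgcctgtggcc
Hoxd10, chr2:74691641-74691890, plus strand: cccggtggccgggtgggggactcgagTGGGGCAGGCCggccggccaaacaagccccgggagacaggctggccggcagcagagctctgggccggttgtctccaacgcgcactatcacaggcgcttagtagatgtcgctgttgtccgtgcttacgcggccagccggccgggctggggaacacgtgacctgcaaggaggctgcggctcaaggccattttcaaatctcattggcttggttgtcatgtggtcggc
Hoxd1, chr2:74762730-74762979, plus strand: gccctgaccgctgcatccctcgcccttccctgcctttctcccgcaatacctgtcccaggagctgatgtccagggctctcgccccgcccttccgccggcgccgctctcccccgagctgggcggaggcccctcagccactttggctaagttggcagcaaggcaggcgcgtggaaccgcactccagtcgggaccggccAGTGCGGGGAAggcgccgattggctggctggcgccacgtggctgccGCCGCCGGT
Hoxa5, chr6:52204588-52204837, minus strand: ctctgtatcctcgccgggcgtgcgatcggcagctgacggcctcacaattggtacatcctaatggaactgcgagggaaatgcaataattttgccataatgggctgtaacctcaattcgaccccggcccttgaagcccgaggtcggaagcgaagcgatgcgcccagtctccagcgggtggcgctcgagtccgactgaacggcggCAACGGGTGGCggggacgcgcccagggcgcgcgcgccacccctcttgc
Hoxa10, chr6:52240855-52241104, minus strand: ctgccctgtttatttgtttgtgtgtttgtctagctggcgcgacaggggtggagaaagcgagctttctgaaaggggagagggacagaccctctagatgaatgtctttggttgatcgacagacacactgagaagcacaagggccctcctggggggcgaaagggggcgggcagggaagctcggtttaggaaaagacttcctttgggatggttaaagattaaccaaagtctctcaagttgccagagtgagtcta
Hoxd4, chr2:74721728-74721977, plus strand: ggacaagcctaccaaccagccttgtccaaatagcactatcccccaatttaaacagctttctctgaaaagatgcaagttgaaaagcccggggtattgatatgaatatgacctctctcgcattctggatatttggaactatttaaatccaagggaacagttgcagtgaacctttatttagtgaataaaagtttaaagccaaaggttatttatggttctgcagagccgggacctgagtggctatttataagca
Hoxa13, chr6:52260881-52261130, minus strand: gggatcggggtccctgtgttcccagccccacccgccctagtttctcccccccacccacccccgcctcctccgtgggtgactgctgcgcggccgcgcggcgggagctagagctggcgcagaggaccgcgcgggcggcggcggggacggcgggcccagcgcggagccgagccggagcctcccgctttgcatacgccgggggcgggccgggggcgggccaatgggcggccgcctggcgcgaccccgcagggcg

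The summit in the Hoxd9 run was that of the injured wild-type list, 16 bases before the start, and the one in the Hoxd10 run was also of that list, 219 bases before the start. The Hoxd1 run held a injured wild-type summit 50 bases and a sham knockout summit 4 bases before the start. The Hoxa5 run held a sham wild-type summit 43 bases before the start. Of the 24 Hox runs, 5 held a summit; the fifth was that of Hoxa3, with a sham knockout summit 248 bases before the start.

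Promoters with and without peaks overlapped in base composition. The median GC content was 58.6% over the 12 runs of Hox genes with a summit within 1 kb of a start in any list and 57.4% over the 12 runs of Hox genes with none, against 55.6% over 21263 protein-coding promoters. The run richest in GC, Hoxa13 at 80.0% with 35 CG dinucleotides, belongs to a gene with no summit, and Hoxd4, the poorest at 40.4% with 3, belongs to a gene with one. The homeodomain core TAATTA, searched on both strands, was in 2 of 24 Hox runs (8.33%) and in 4.31% of all promoters. The Pbx-Hox site TGATTNAT, also on both strands, was in 2 of 24 (8.33%) and in 2.52% of all. All 4 matches were in genes without a summit: TGATTNAT before Hoxa2 and Hoxd11, and TAATTA before both starts of Hoxd11.

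Within the clusters, summits lay among paralogues 1 to 10 and almost none among 11 to 13. Inside the clusters the lists held 95 summits in all, of which 94 belonged to paralogues 1 to 10 and 1 to paralogues 11 to 13. That one was a injured wild-type summit of score 2.57 between Hoxa11 and Hoxa13, 7.28 kb from the start of Hoxa13. The split at number 10 was chosen after the values had been seen. The map of summits along each cluster shows this together with the Hox genes.

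**Figure D1:**
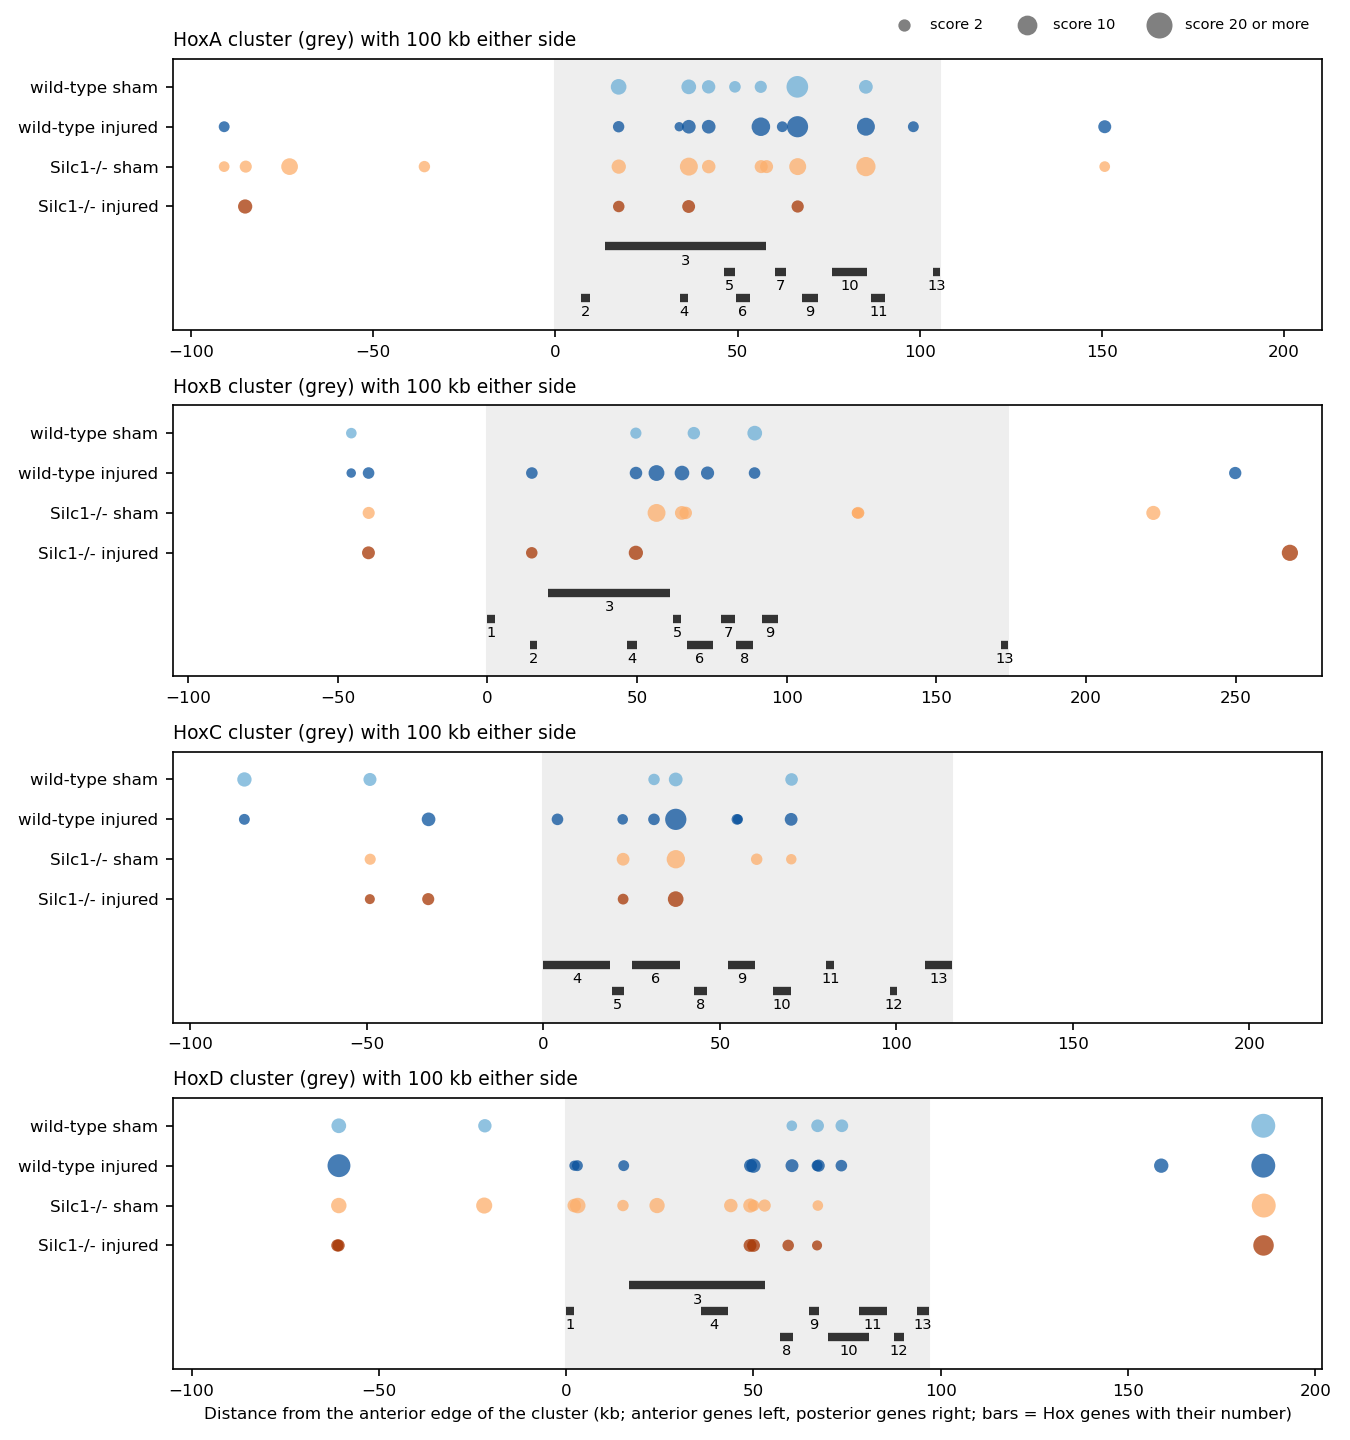
Summits of the 4 lists along the HoxA, HoxB, HoxC and HoxD windows; the x axis is the distance in kb from the anterior edge of the cluster, circle area grows with the summit score up to 20, black bars are Hox genes with their numbers and grey marks the cluster; 1 gene and the summits assigned to it are not drawn. Inside the clusters, 1 of 95 summits lies among paralogues 11 to 13, in the injured wild-type row of HoxA.

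Gene starts showed the same gap at numbers 11 to 13. A gene was called when a summit lay within 1 kb of its start; for the 17 Hox genes with no promoter entry either annotated end was used. None of the 9 genes with numbers 11 to 13 (Hoxa11, Hoxa13, Hoxb13, Hoxc11, Hoxc12, Hoxc13, Hoxd11, Hoxd12 and Hoxd13) was called in any list, while 19 of the 30 genes with numbers 1 to 10 (63.3%) were called in at least 1. Of these 19, Hoxb2 and Hoxb6 were called only near their downstream end by the strand of their cluster. Over all protein-coding genes, 58.1% were called in at least 1 list and 41.9% in none. By that measure genes 1 to 10 lay near the background and genes 11 to 13 were all on the uncalled side. In each list taken alone, genes 1 to 10 lay below it. Of the 30, 9, 13, 13 and 5 were called in sham wild-type, injured wild-type, sham knockout and injured knockout mice. The shares of all genes were 48.2%, 53.8%, 52.7% and 47.3%. All 4 lists called 6.67% of genes 1 to 10, against 42.7% of all genes.

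The distance from these 9 genes to the nearest summit of any list was taken from the start where a promoter entry was at hand. For Hoxb13, Hoxc11, Hoxc12 and Hoxc13, which have none, it was taken from the nearer annotated end. By the strand of their clusters this was the downstream end, so their starts lay farther away. The nearest summit was 5.23 kb away at Hoxa11, 7.28 kb at Hoxa13, 9.22 kb at Hoxd11, 9.86 kb at Hoxc11 and 16.53 kb at Hoxd12. It lay 23.32 kb away at Hoxd13, 27.95 kb at Hoxc12, 37.74 kb at Hoxc13 and 47.41 kb at Hoxb13, which stands alone at the end of its cluster. Hoxc11, Hoxc12 and Hoxc13 lay whole inside a stretch of 159.4 kb with no summit of any list, from 102807114 to 102966557 on chromosome 15. Hoxd11, Hoxd12, Hoxd13 and their neighbour Evx2 lay in one of 85.3 kb (74606278 to 74691541 on chromosome 2), Hoxb13 in one of 98.2 kb and Hoxa13 in one of 52.5 kb. Such stretches were not rare: 9.27%, 16.3%, 14.7% and 21.9% of autosomal protein-coding genes lay whole inside one at least as long as these 4, in that order. A stretch at an anterior end, of 54.5 kb around Hoxb1, was longer than that of Hoxa13 (21.5% of genes lay in one as long), and Hoxd1 lay in one of 23.9 kb. Of the genes 1 to 10, 14 of 30 (46.7%) lay whole between neighbouring summits of any list, against 9 of 9 genes 11 to 13 and 35.9% of autosomal protein-coding genes. Genes were not matched for length in these shares, and a short gene fits between summits more easily. A gene can also lie whole between summits with 1 close to its start, as Hoxd1 did at 4 bases.

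In HoxC and HoxD the anterior border of these stretches was a gene with the number 10, of the group that gives lumbar motor neurons their identity. In HoxC it was Hoxc10, with summits at 102966557 in sham wild-type mice (score 4.09), 102966681 in injured wild-type mice (4.29) and 102966641 in sham knockout mice (2.19), all 115 to 239 bases before its start, and none in injured knockout mice. In HoxD it was Hoxd10, with summits at 74691541 in sham wild-type mice (4.20) and 74691672 in injured wild-type mice (3.18) and none within 1 kb in either knockout list. All 3 genes with the number 10 were thus called in both wild-type lists, and Hoxa10 and Hoxc10 also in sham knockout mice.

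**Figure D2:**
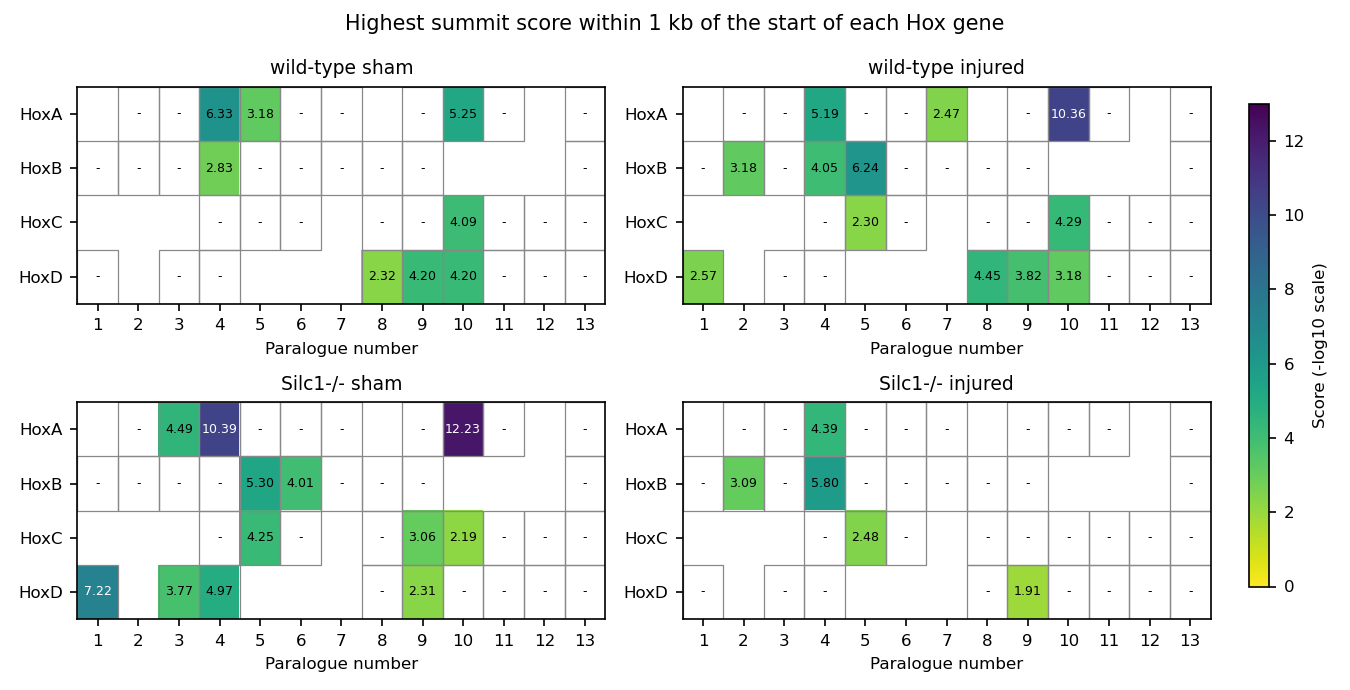
Highest summit score within 1 kb of the start of each Hox gene, in 1 panel per list, with clusters as rows and paralogue numbers as columns; a dash is a gene with no summit and a blank cell a position with no gene or, for 1 gene, one not reported here. Columns 11 to 13 hold only dashes in all 4 lists, and the highest value is 12.23 for Hoxa10 in sham knockout mice.

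Although many Hox starts were called once, few were called throughout. In sham wild-type mice 9 of 39 Hox genes were called (23.1%), in injured wild-type mice 13 (33.3%), in sham knockout mice 13 (33.3%) and in injured knockout mice 5 (12.8%). The shares of all protein-coding genes were 48.2%, 53.8%, 52.7% and 47.3%. With the start taken from the strand of the cluster for Hox genes with no promoter entry, the Hox counts were 9, 12, 12 and 4. With each list cut to its highest-scoring summits at the length of the shortest, the Hox counts were 9, 3, 6 and 3. Only Hoxa4 and Hoxd9 were called in all 4 lists, 5.13% of Hox genes against 42.7% of all genes. Called Hox starts had low scores, none above 12.23; of the 4353 genes called in at least 1 list with no score above that value, 30.2% were called in all 4, against 2 of 19 Hox genes (10.5%). That comparison was chosen after seeing the data, and its limit is the score of Hoxa10 alone. Below the limit the sets were not matched for score, so the part that low scores play was not tested. Exactly 3 lists called 5 Hox genes (12.8%, all genes 5.73%), exactly 2 called 5 (12.8%, all genes 4.16%) and exactly 1 called 7 (17.9%, all genes 5.47%).

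Hoxa4, a central gene of the neck region, had its summit 224 to 282 bases before the start in every list: at 52191961 in sham wild-type mice (score 6.33), 52191984 in injured wild-type mice (5.19), 52191985 in sham knockout mice (10.39) and 52191927 in injured knockout mice (4.39). The 4 summits lay within 58 bases of each other. Hoxd9, a posterior gene that takes part in lumbar and limb patterning, had its highest summit at 74698015 in sham wild-type mice (4.20), 74697747 in injured wild-type mice (3.82), 74697954 in sham knockout mice (2.31) and 74698165 in injured knockout mice (1.91). Injured knockout mice had the lowest score at both genes.

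Among the anterior genes, Hoxd1 and Hoxb2 were called in 2 lists, Hoxa3 and Hoxd3 in 1, and Hoxa2, Hoxb1 and Hoxb3 in none. Hoxd1, which takes part in the wiring of pain-sensing neurons in mice, had 2.57 in injured wild-type mice and 7.22 in sham knockout mice. These highest summits lay 845 and 936 bases before its start, inside the noncoding gene Haglr. The summits marked in the sequence run of Hoxd1, 50 and 4 bases before the start, had 1.99 and 5.06 in the same lists. The Hoxb2 summits (3.18 in injured wild-type mice, 3.09 in injured knockout mice) lay at the downstream end of the gene, 1729 and 1764 bases past the start by the strand of its cluster. Hoxb2 is therefore no called start once the strand is used.

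Of the 15 central genes, 9 were called in at least 1 list. Besides Hoxa4 they were Hoxb4, known also from blood stem cells (2.83 in sham wild-type mice, 4.05 in injured wild-type mice and 5.80 in injured knockout mice), Hoxc5 (2.30 in injured wild-type mice, 4.25 in sham knockout mice and 2.48 in injured knockout mice), Hoxb5 (6.24 in injured wild-type mice and 5.30 in sham knockout mice) and Hoxd8 (2.32 in sham wild-type mice and 4.45 in injured wild-type mice). Single lists called Hoxa5 (3.18, sham wild-type mice), Hoxa7 (2.47, injured wild-type mice), and Hoxb6 (4.01) and Hoxd4 (4.97), both sham knockout mice. The Hoxb6 summit lay 9164 bases past its start by the strand of the cluster, close to its downstream end. Hoxa6, Hoxb7, Hoxb8, Hoxc4, Hoxc6 and Hoxc8, of which the last acts in thoracic neurons and ribs, were not called. Hoxc6 missed by little: its nearest summit was 1126 bases from the start, against 953 bases at Hoxa7, just inside the limit. Hoxb8 had wild-type summits at 96278932 and 96278994, upstream of the gene and 2.91 kb or more from the start in the promoter table. The nearer one lay 0.41 kb from the annotated upstream end of the gene, which was not used because Hoxb8 has a promoter entry.

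Posterior genes called besides Hoxd9 and the 3 with number 10 came to 1, Hoxc9 in sham knockout mice (3.06). Hoxa10, a gene of lumbar and sacral identity, had the highest score at any Hox start: 5.25 at 52240568 in sham wild-type mice, 10.36 at 52240580 in injured wild-type mice and 12.23 at 52240574 in sham knockout mice, within 12 bases of each other and 274 to 286 bases past the start. The injured knockout list had no summit within 18 kb.

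The division of summits between anterior, central and posterior genes depended on how a summit was given to a gene. Given to the gene whose body holds them or whose end is nearer, 46 of the 95 summits belonged to anterior, 24 to central and 25 to posterior numbers. Paralogue 3 had 30 and paralogue 9 had 16, but Hoxa3, Hoxb3 and Hoxd3 have long RefSeq transcripts that run over their neighbours. Given instead to the nearest gene start, a rule added after seeing the data, paralogue 3 had 13, paralogue 4 had 14 rather than 4, and the totals were 35, 39 and 21. Under both rules paralogues 11 and 12 had 0 and paralogue 13 had 1.

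**Figure D3:**
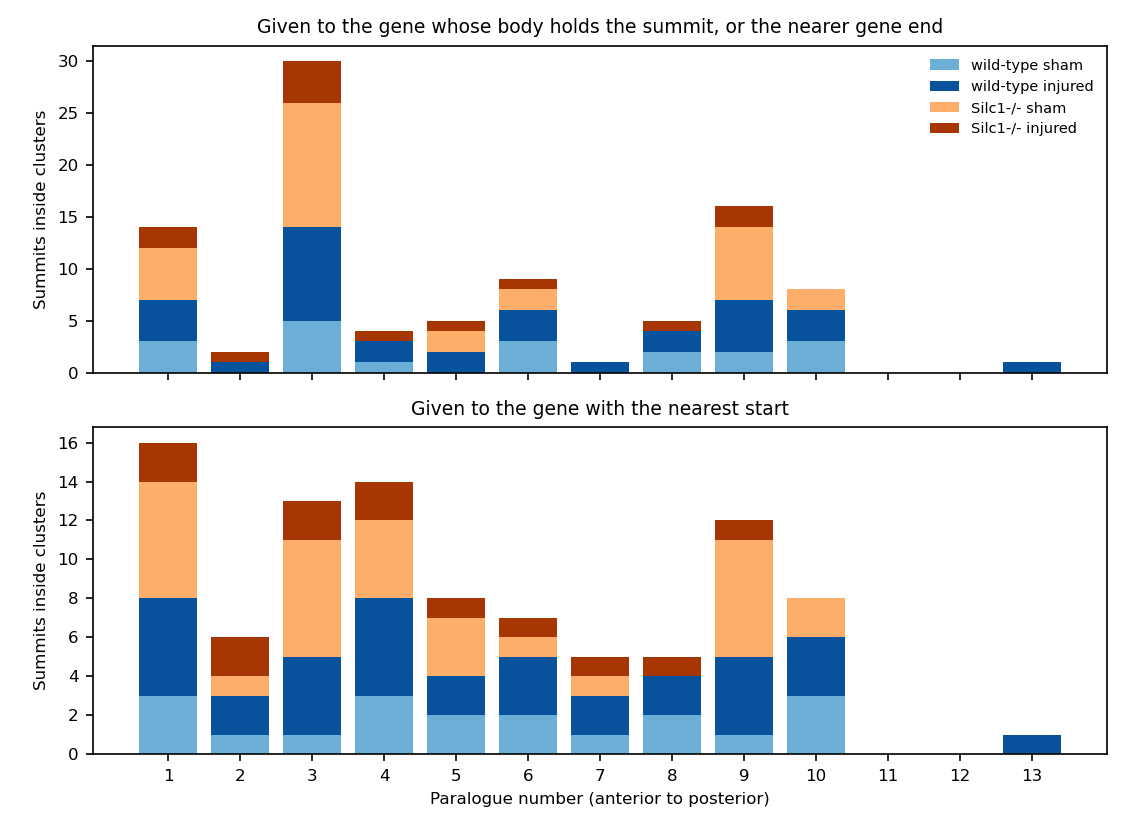
Number of summits inside the 4 clusters by paralogue number, stacked by list; in the upper panel a summit goes to the gene whose body holds it or whose end is nearer, in the lower panel to the gene with the nearest start. Paralogue 3 falls from 30 to 13 between the panels, and numbers 11 and 12 stay at 0 in both.

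The 4 clusters differed in how densely they were open. HoxA held 10 summits in sham wild-type mice, 11 in injured wild-type mice, 10 in sham knockout mice and 5 in injured knockout mice within its 105.5 kb. Of 23127 autosomal tiles of that length, 0.281%, 0.692%, 0.804% and 6.35% held as many or more in the same lists. HoxD held 3, 9, 9 and 4 within 96.9 kb, reached by 13.4%, 1.31%, 1.10% and 10.2% of tiles. HoxC held 3, 7, 4 and 2 within 115.7 kb (17.3%, 5.86%, 23.6% and 40.7% of tiles). HoxB, the longest at 173.9 kb, held 3, 6, 7 and 2, reached by 27.4%, 18.1%, 15.2% and 55.0% of tiles, so it lay well within the range of the rest of the genome. Tiles include gene deserts, and are a description rather than a test.

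Within the clusters summits stood at 3.86, 6.71, 6.10 and 2.64 per 100 kb in sham wild-type mice, injured wild-type mice, sham knockout mice and injured knockout mice. In the flanks they stood at 0.75, 1.25, 1.38 and 1.00 per 100 kb. Of the 35 flank summits over all lists, 25 lay on the anterior side and 10 on the posterior side, and the posterior flank of HoxC had none in any list.

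Joining summits of all lists that lay within 200 bases of the next gave 67 loci in the windows, 49 of them inside the clusters. All 4 lists held 8 of the 67 (11.9%), against 18.3% of 78381 loci in the genome. Exactly 3 lists held 11 (16.4%, genome 11.1%), exactly 2 held 17 (25.4%, genome 18.2%) and 1 list held 31 (46.3%, genome 52.4%). HoxA had 4 of the 8 constant loci, HoxD 3, HoxC 1 and HoxB 0.

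The constant locus with the highest score inside a cluster stood in the gap between Hoxa7 and Hoxa9, 3.18 to 3.28 kb upstream of the start of Hoxa7. Its score was 16 in sham wild-type mice (52221757), 15.23 in injured wild-type mice (52221807), 9.05 in sham knockout mice (52221855) and 3.75 in injured knockout mice (52221849). The scores thus covered a wide range while the summits lay within 98 bases. The constant HoxC locus lay inside Hoxc6, 1126 to 1166 bases past its start, with scores of 5.29, 15.34, 10.89 and 7.44 in the same order of lists, summits within 40 bases. A constant locus inside Hoxa3, at 52172711 to 52172745, had 7.40, 3.00, 5.85 and 3.09.

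In HoxB the highest-scoring locus was at 96311722 to 96311742 inside Hoxb3, with 7.62 in injured wild-type mice and 10.29 in sham knockout mice and no summit in the other lists. Sham knockout mice also had 4 summits between 96244017 and 96244900, in the long gap between Hoxb9 and Hoxb13, with scores of 1.87 to 3.63 and no other list within 34 kb. In HoxD the summits inside Hoxd3 at 74715117 to 74715141 and 74715914 to 74716055, over the antisense gene Hoxd3os1, were present in injured wild-type mice (5.92 and 4.49), sham knockout mice (3.02 and 5.67) and injured knockout mice (4.39 and 4.34), and absent from sham wild-type mice.

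The highest window score of each list was outside the clusters, at Lnpk, a neighbouring gene of HoxD. These summits lay within 1 kb of the annotated end of Lnpk nearer to HoxD, and whether this is its start was not examined. At Lnpk, which encodes the endoplasmic reticulum protein lunapark, the scores were 37.92, 76.46, 29.99 and 14.15 in sham wild-type mice, injured wild-type mice, sham knockout mice and injured knockout mice. At Mtx2, a component of mitochondrial protein import on the other side, they were 6.33, 18.12, 7.16 and 3.73. Only in injured wild-type mice did Mtx2 score above every summit inside the clusters, where the highest was 15.34. In the other lists the highest inside the clusters were 16 (sham wild-type mice), 12.23 (sham knockout mice) and 7.44 (injured knockout mice). Wild-type injured was highest and injured knockout mice lowest at both. Evx1 and Evx2, homeobox genes next to HoxA and HoxD, had no summit within 1 kb of their starts in any list, nor had the related ParaHox genes Gsx1, Gsx2 and Pdx1.

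Injury was compared with sham within each genotype after scaling to list length. In wild type the Hox windows held 9.16 of 10000 summits after sham (exact binomial 95% interval 5.93 to 13.53) and 9.81 after injury (7.10 to 13.21), a ratio of 1.07 (0.639 to 1.828). In Silc1-/- they held 8.48 (6.09 to 11.51) after sham and 5.86 (3.63 to 8.96) after injury, a ratio of 0.691 (0.388 to 1.197). Intervals cover counting error only, and both ratios' intervals include 1. At equal list lengths the wild-type ratio turned to 0.64 and the Silc1-/- ratio was 0.818.

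Between genotypes, the windows' ratio of Silc1-/- to wild type was 0.926 (0.550 to 1.588) after sham and 0.598 (0.337 to 1.030) after injury. Inside the clusters alone it was 0.891 (0.485 to 1.676) after sham and 0.482 (0.233 to 0.941) after injury, from 13 summits in Silc1-/- and 33 in wild type. This last interval excludes 1 for counting error, but it holds no spread between animals. No other ratio interval given here excludes 1. The order depended on list length. At equal list lengths the windows held 16 summits in injured wild-type mice and 18 in injured Silc1-/- mice. Inside the clusters alone, equal list lengths were not tried.

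**Figure D4:**
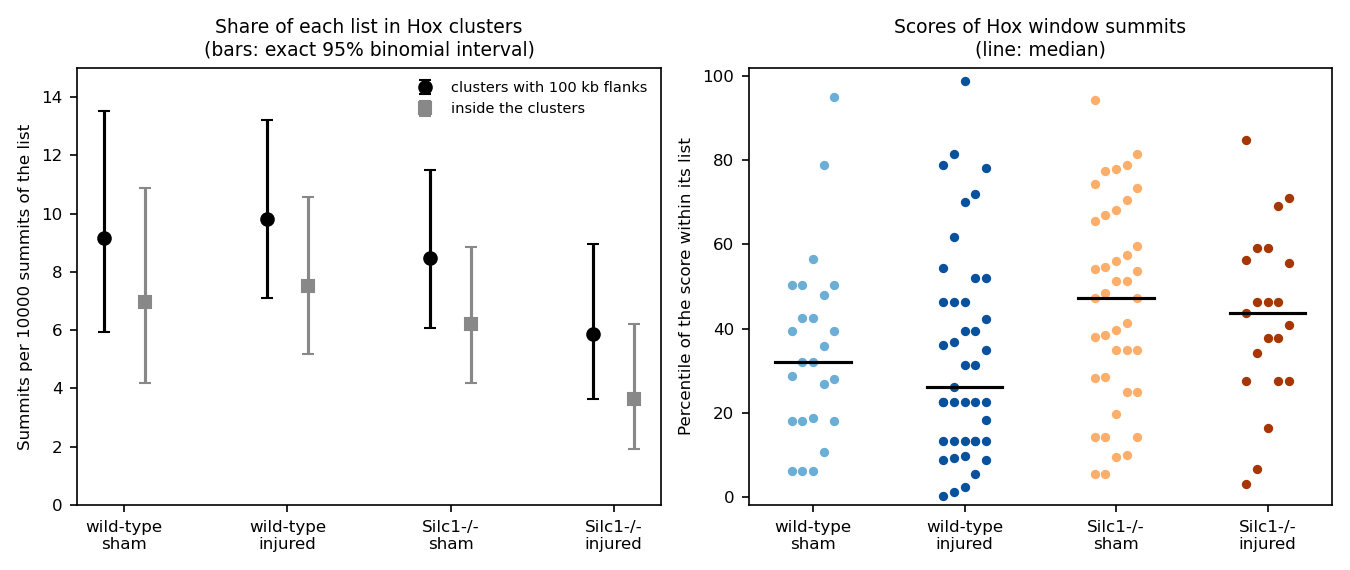
Left, summits in the Hox windows (black) and inside the clusters (grey) per 10000 summits of each list, with exact 95% binomial intervals for counting error; right, the percentile of each Hox window summit's score within its own list, with the median as a line. With the lists as deposited, injured knockout mice have the lowest share in both sets (5.86 and 3.63), and their interval overlaps those of the other lists. At equal list lengths, not drawn, injured wild-type mice had the fewest window summits (16), against 18 in injured knockout mice.

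In each of the 4 contrasts between lists, more Hox starts were called in the longer list alone than in the shorter. In wild type, 5 Hox genes were called after injury and not after sham (Hoxa7, Hoxb2, Hoxb5, Hoxc5 and Hoxd1; 12.8%, with 6.82% of all genes) and 1 the other way (Hoxa5; 2.56%, with 1.22% of all genes). In Silc1-/-, 2 were called after injury alone (Hoxb2 and Hoxb4; 5.13%, all genes 1.68%) and 10 after sham alone (25.6%, all genes 7.09%). Among the 10 were Hoxa3, Hoxa10, Hoxb5, Hoxb6, Hoxc9, Hoxc10, Hoxd1, Hoxd3 and Hoxd4, of which Hoxb6 was called only near its downstream end. Between the sham lists 8 were called in Silc1-/- alone (20.5%, all genes 6.41%), Hoxb6 again among them, and 4 in wild type alone (10.3%, all genes 1.87%). Between the injured lists 0 were called in Silc1-/- alone (all genes 1.58%) and 8 in wild type alone (20.5%, all genes 8.05%). Hox genes exceeded the share of all genes in 7 of these 8 directions, in gain as in loss. These contrasts share lists and are not separate observations. Hoxb2 was the 1 Hox gene called after injury in both genotypes and after sham in neither (2.56%, all genes 0.425%), and none showed the opposite pattern (all genes 0.374%). Its summits lie at its downstream end, and without it that class held 0 Hox genes and the gains after injury were 4 in wild type and 1 in Silc1-/-.

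Hox scores stood below the middle of their lists. The median percentile of a window summit was 32.0 in sham wild-type mice, 26.1 in injured wild-type mice, 47.3 in sham knockout mice and 43.7 in injured knockout mice. Summits with a score of at least 10 numbered 2, 6, 5 and 1. The part that depth plays in which of these low-scoring sites were called was not tested.

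Loci held by both lists of 1 treatment or of 1 genotype alone were few. Both injured lists alone held 2: the Hoxb2 locus above, and one in the anterior flank of HoxC at 103069405 (5.19, wild type) and 103069500 (3.64, Silc1-/-). Both sham lists alone held 1, in the anterior flank of HoxD at 74786840 (4.89, wild type) and 74787019 (7.94, Silc1-/-), 179 bases apart. Both knockout lists alone held 1, in the anterior flank of HoxA at 52070379 (3.63, sham) and 52070216 (5.80, injured). Both wild-type lists alone held 6, among them the loci of Hoxd10 (lower score 3.18), upstream of Hoxb8 (6.33 after sham and 3.18 after injury) and inside Hoxc6 at 103005525 (3.04 and 3.18). The injured wild-type and the sham knockout list, the longest lists and with neither factor in common, alone held 7. As shares of the 67 loci these were 3.0%, 1.5%, 1.5%, 9.0% and 10.4%, against 2.7%, 1.5%, 4.4%, 2.4% and 6.0% of loci in the genome.

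The clusters also hold microRNA genes, some of which act on Hox transcripts. Their mature sequences are given from RefSeq (GRCm38.p6), with the seed, bases 2 to 8, in capitals, to show which of them share one. The miR-10 pair share one seed and the miR-196 group another.
miR-10a-5p: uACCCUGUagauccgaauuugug
miR-10b-5p: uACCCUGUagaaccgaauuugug
miR-196a-5p: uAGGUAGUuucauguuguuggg
miR-196b-5p: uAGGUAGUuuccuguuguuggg
miR-615-3p: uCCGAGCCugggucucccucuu

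Mir10a, between Hoxb4 and Hoxb5, had its nearest summit 1.43 kb away in sham wild-type mice, 1.39 kb in injured wild-type mice, 5.47 kb in sham knockout mice and 1.43 kb in injured knockout mice (distances from the middle of miR-10a-5p), the nearer ones being those of the Hoxb4 start. Mir10b, inside the RefSeq span of Hoxd4 and with the same seed, stood 21.18, 10.17, 4.90 and 10.03 kb from the nearest summit in the same order. None of the 3 genes of the miR-196 seed had a summit within 3 kb: the nearest to Mir196b was 8.28 to 8.38 kb away over the lists, to Mir196a-1 13.73 to 53.43 kb and to Mir196a-2 3.07 to 26.02 kb. Mir615, inside Hoxc5, had a summit within 1 kb of an end in 3 lists, which were the Hoxc5 summits, and none in sham wild-type mice.

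Of the 10 listed noncoding genes of the clusters, microRNA genes included, 1, 3, 3 and 2 had a summit within 1 kb of an end in the 4 lists, in the order used above; 1 had one in all lists and 7 in none. Haglr, between Hoxd1 and Hoxd3, had a summit within 1 kb of an end in injured wild-type mice (2.57) and sham knockout mice (7.22). These were the same summits by which Hoxd1 was called. Hottip and Hotair, long noncoding RNAs of the posterior ends of HoxA and HoxC, had none in any list. Their neighbours are the Hox genes 11 to 13 described above.

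Genes that act with or on the clusters elsewhere in the genome were given by lists chosen with earlier results known. Of 9 Hox cofactors, which bind DNA together with Hox proteins, 5 were called in all 4 lists, among them Pbx3 (21.45, 34.19, 21.66 and 12.18), Pbx4, Meis1 (7.86, 15.24, 18.30 and 6.01) and Pknox1. Meis2 was called in none. Of 16 genes of the Polycomb complexes, which silence Hox genes, 14 were called in all 4, with Ezh2, the methyltransferase, at 27.69, 36.15, 30.14 and 19.95. Of 7 trithorax and demethylase genes 5 were called in all 4, and Ash2l and Kdm6b in none. Of 10 upstream patterning genes 5 were, among them Rara, Rarb, Rarg and Egr2, while Cdx1, Cdx2, Cdx4 and Cyp26a1, which act in the embryo, were called in none. The share of all protein-coding genes called in all 4 lists was 42.7%.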

How the data were processed

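ATAC-seq libraries of dorsal root ganglia, 12 in 4 groups of 3, were grouped by genotype and treatment in the labels. The authors deposited 1 list of summits per group with a score on a −log10 scale; Bowtie2, MACS2 and mm10 are named, per the submitters' processing notes. Versions, read filters, pooling of libraries and any read shift for the transposase: not given in the sources used here. The smallest score was 1.3. Positions are 1-based. Some genes are not reported here by name.

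The Hox genes, lists and rules were chosen with earlier results of these data known. Genes and starts came from RefSeq tables of GRCm38.p6 (starts for 17492 of 21900 protein-coding genes; either gene end otherwise). Summits within 200 bp of the next were joined to loci. Named were all Hox genes, the highest-scoring locus of each cluster, up to 3 loci of each treatment or genotype class, and the promoters of the called genes with the highest lower score; Hoxd9, Hoxd10, Hoxd1, Hoxa5 and Hoxa13 promoters were added after seeing the data. Ratio intervals are exact, conditional on the summed count. On simulated lists, all 3000 planted genes, 15 classes of loci and 16 window counts were recovered. Gene summits were planted close to the positions used for calling, at genes lying far from others. The simulation therefore checks the counting only, and not calls at overlapping genes such as those of the clusters. Python 3.11.15, numpy 2.4.6, pandas 2.3.3, scipy 1.17.1 and matplotlib 3.10.9 were used.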

Additional observations from a re-analysis of the deposited data

Results flagged for a closer look

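The share of summits in the Hox windows moved in opposite directions after injury in the 2 genotypes, with an injured to sham ratio of 1.07 in wild type and 0.691 in Silc1-/-. Each group has 1 list, so the difference between genotypes was not tested. Both intervals for counting error include 1, and the wild-type ratio fell below 1 at equal list lengths and at scores of at least 5.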

How the results depend on the processing

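No paired analysis was possible because each group has 1 list of summits that names no replicate, and for the same reason no replicate could be left out. Of 49 alternative values, 28 stayed close to the reported ones. The number of Hox genes called at the start was 9 in sham wild-type mice, 13 in injured wild-type mice, 13 in sham knockout mice and 5 in injured knockout mice. Kept to scores of 5 or more these were 2, 3, 4 and 1; kept to 10 or more, 0, 1, 2 and 0. At equal list lengths sham wild-type mice stayed at 9, while injured wild-type mice had 3, sham knockout mice 6 and injured knockout mice 3, so the order of the wild-type lists turned around. Within 2500 bp injured knockout mice had 8. With the start of Hox genes without a promoter entry taken from the strand of the cluster, the counts were 9, 12, 12 and 4. The loci in all 4 lists numbered 5 when joined within 50 bp, 5 at equal list lengths, 14 with flanks of 200 kb, 2 at scores of at least 5 and 1 at scores of at least 10. The injured to sham ratio in wild type became 0.64 at equal list lengths, 0.93 at scores of at least 5 and 2.086 at scores of at least 10 (6 summits against 2). In Silc1-/- it became 0.273 at scores of at least 10, from 1 summit against 5. Score limits and equal lengths leave fewer summits by construction. Unknown depth limits every absence reported here to these lists.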
